A study of Mus musculus with 24 samples.

Results

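Ifnb1, which encodes interferon beta, and 8 genes of interferon regulatory factors (Irf1, Irf2, Irf3, Irf4, Irf5, Irf7, Irf8 and Irf9) were followed through a lipopolysaccharide (LPS) time course in a pair of macrophage lines. The genes were chosen by name in the array's gene column, as 9 of 27827 gene names, and all of their 13 probes were used. The cells were RAW264.7, a mouse macrophage-like line, grown in medium with G418 and carrying a construct for Tbc1d23 or, as the control, for chloramphenicol acetyltransferase (CAT). Each line was left without LPS (0 h) or given 20 ng/ml LPS, the bacterial ligand of the receptor TLR4, for 1, 3 or 5 h, with 3 arrays in each of the 8 groups. There was 1 line per construct, so construct and line cannot be told apart. The design entry of the study describes the 3 replicates of a group as biological, but no label says that they were separate cultures. P-values therefore measure the spread between these samples, which may be technical.

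Interferon beta is the first type I interferon that a macrophage makes when TLR4 signals through the adaptor TRIF. TRIF leads to phosphorylation of IRF3, which with NF-kB and AP-1 binds a compact enhancer just upstream of Ifnb1. The secreted interferon acts back on the cell through its receptor and through ISGF3, a complex with IRF9 as its DNA-binding subunit that switches on antiviral genes and Irf7. IRF3 and IRF7 are controlled largely by phosphorylation, which an RNA measurement does not show.

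Levels are log2 of the background-subtracted signal after division by the array's 75th percentile, so that 0 is the signal of a probe at that percentile, and levels of different probes are not compared. The scanner software called between 42 and 69.5% of an array's probes well above background. Both ends were Tbc1d23 arrays at 0 h (replicate 2 at 42% and replicate 1 at 69.5%), whereas the CAT arrays ran from 48.4 to 54%. That uneven group is the baseline of the Tbc1d23 responses and enters the 0 h line differences. Of the member probes, 9 were well above background on all 24 arrays, the Ifnb1 probe on 18, the probe of Irf4 on 10, and the dimmer probes of Irf1 and Irf9 on 17 and 22. Each replicate's 4 times lay on 1 slide. A slide run means here slides whose serial numbers in the file headers follow each other. No label names such a run as a batch. The slide of Tbc1d23 replicate 3 belonged to the slide run of the CAT slides, whereas those of Tbc1d23 replicates 1 and 2 belonged to another run. Replicate 3 correlated less with replicates 1 and 2 (r = 0.967 to 0.977 across probes) than they did with each other (0.977 to 0.986). Probes are not independent replicates, and the tests of the members were also computed without that slide. They were also computed from that slide run alone, which has 1 Tbc1d23 array per time, so that the spread there comes from the CAT groups alone and the lone Tbc1d23 array is assumed to vary like them.

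The Tbc1d23 probes were read first as a check of the labels. The brighter one (A_51_P223575) differed between the lines by a log2 of 0.03, -0.18, 0.47 and -0.20 at 0, 1, 3 and 5 h, and none of these passed the test. The dimmer one (A_52_P448220) passed at 3 h (0.99, limma adjusted p = 0.000117) and at 5 h (0.47, adjusted p = 0.0302), and not at 0 h (0.36, adjusted p = 0.109). The labels do not say if the construct holds the sequences these probes detect, and the names Tbc1d23 line and CAT line follow the labels. The macrophage markers were present in both lines: 9 or 10 of 10 were well above background on every array, with a summed linear level (1 is the 75th percentile) of 740 to 1480 in Tbc1d23 arrays and 1300 to 1800 in CAT arrays. Of the 9 tested, 6 were called lower and 1 higher in the Tbc1d23 line at 0 h (median line difference -1.85), 6 and 1 at 1 h (median -1.55), 4 and 0 at 3 h (median -0.44) and 5 and 0 at 5 h (median -1.02), a call being a limma adjusted p under 0.05. Of all probes 20.2, 21.8, 24.4 and 24% were called lower at these times. At 3 h the log2 line difference was -2.50 ± 0.21 (SE) for Mpeg1 and -2.10 ± 0.17 for Aif1. Markers of other cell types summed to less. For dendritic cells they ran from 0.533 to 1.53 in the Tbc1d23 line and from 1.58 to 7.34 in the CAT line, for B cells from 0.752 to 1.87 and from 0.182 to 0.695, for T and NK cells from 3.01 to 4.36 and from 0.621 to 1.89, and for fibroblasts and epithelium from 0.117 to 0.984 and from 0.456 to 1.33. Among these markers it was -3.16 ± 0.17 for Itgax, -1.44 ± 0.59 for Cd3e, -3.19 ± 0.74 for Pdgfrb (1 of 3 Tbc1d23 arrays well above background) and 2.69 ± 0.20 for Cd5 at 3 h. Vpreb1, below background in the CAT line, was at least 14.3-fold higher at 3 h. Cd79b and Lum, below background in the Tbc1d23 line at 3 h, were at least 1.97-fold and 1.12-fold lower then (Lum with 2 of 3 CAT arrays well above background). Siglech, Ebf1 and Col1a1 were below background in every group, and the part of such markers in the results was not tested. In bulk RNA, fewer cells of a type and less RNA per cell cannot be told apart.

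The promoters of the 9 genes were read from RefSeq (GRCm38.p6), as the 250 bases before each of their 12 annotated starts, and searched on both strands for motifs of the IRF family and of NF-kB. An IRF core, AANNGAAA, was found in 2 of the 12 windows against 21.3% of all 32851 windows of this length. Its tandem form, the interferon response element core GAAA followed after any 2 bases by GAAA, which overlaps the IRF core by construction, was found in 1 window against 2.98% of all. The NF-kB consensus was found in 3 windows against 3.9% of all. The 3 genes with any match are printed 5′ to 3′ on their own strand with the matches in capitals. For Ifnb1, bases -250 to -71 are given (chr4:88522865-88523044, minus strand), which hold IRF cores that begin at -159, -139 and -126 and the NF-kB match at -116.
Ifnb1: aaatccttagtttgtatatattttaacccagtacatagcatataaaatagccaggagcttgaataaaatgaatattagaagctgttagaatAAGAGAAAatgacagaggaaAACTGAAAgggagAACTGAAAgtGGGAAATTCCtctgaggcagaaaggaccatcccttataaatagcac
Irf1 (chr11:53769764-53770013, plus strand; NF-kB match at -13): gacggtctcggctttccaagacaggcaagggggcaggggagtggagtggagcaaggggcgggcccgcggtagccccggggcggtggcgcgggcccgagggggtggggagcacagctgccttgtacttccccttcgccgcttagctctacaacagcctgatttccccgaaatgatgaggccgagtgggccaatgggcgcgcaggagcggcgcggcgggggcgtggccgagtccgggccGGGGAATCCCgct
Irf2 (chr8:46739495-46739744, plus strand; IRF cores at -245 and -239, the response element core at -241 and NF-kB match at -17): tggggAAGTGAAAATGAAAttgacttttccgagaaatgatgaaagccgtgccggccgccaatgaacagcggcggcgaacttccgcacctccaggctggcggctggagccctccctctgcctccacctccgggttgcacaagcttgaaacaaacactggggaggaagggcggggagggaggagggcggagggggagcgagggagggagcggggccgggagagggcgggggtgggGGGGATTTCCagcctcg
Irf1 has another annotated start further downstream, whose window held none of these motifs, and neither did the windows of Irf3, Irf4, Irf5, Irf7, Irf8 and Irf9. A match is a description of sequence, and these arrays did not measure binding.

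LPS raised Ifnb1 strongly in the CAT line and weakly in the Tbc1d23 line. Its probe (A_51_P144180, mm9 chr4:88168023-88168082, minus strand) was not well above background on any array at 0 h in either line. At 1 h the CAT arrays read 1.83, 2.24 and 1.97 and the Tbc1d23 arrays -1.90, -2.24 and -1.84. At 3 h the CAT arrays read 3.35, 3.26 and 2.83 and the Tbc1d23 arrays -2.19, -1.89 and -1.82. At 5 h they read 2.42, 2.28 and 2.29 against -1.72, -1.47 and -1.32. Every CAT array lay above every Tbc1d23 array at the 3 times after LPS, and all of these arrays were well above background.

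**Figure D1:**
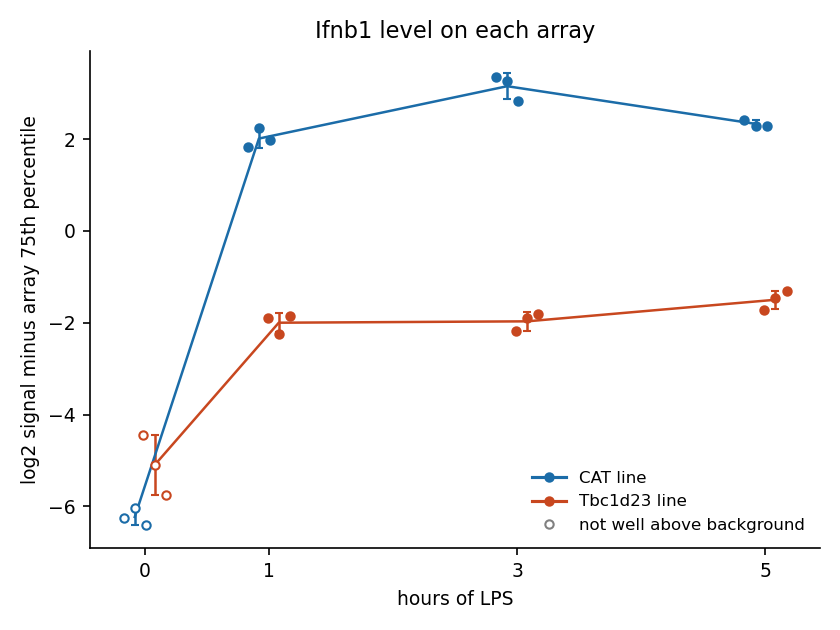
Log2 level of Ifnb1 relative to the array's 75th percentile (y axis) at each time after LPS in hours (x axis) in the CAT and Tbc1d23 lines. Points are arrays, lines join group means, bars are ± SD (n = 3), and open points are not well above background. The CAT mean peaked at 3.15 at 3 h, and the Tbc1d23 means after LPS lay between -2 and -1.50.

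Against 0 h, Ifnb1 was at least 94.9-fold higher at 1 h, at least 208-fold at 3 h and at least 118-fold at 5 h in the CAT line (limma adjusted p = 4.6e-15, 3.88e-16 and 1.42e-15). These are bounds, since the 0 h level enters as the lowest signal that counted as well above background on those arrays or the probe's own if higher. In the Tbc1d23 line the bounds were at least 4.24-fold, 4.33-fold and 5.97-fold (adjusted p = 5.39e-08, 2.91e-08 and 6.84e-09). The induction of Ifnb1 was thus reduced but not lost. The line difference, Tbc1d23 minus CAT, was -4.01 ± 0.24 (SE) at 1 h, -5.11 ± 0.24 at 3 h and -3.83 ± 0.24 at 5 h, or 16.1-fold, 34.6-fold and 14.3-fold lower (adjusted p = 1.73e-10, 3.54e-12 and 1.43e-10). Of all 21960 probes tested, 45% were called in either direction at 1 h, 50.3% at 3 h and 52.6% at 5 h, so a call between these lines is common and its size tells more. A call means a limma adjusted p under 0.05 (Benjamini-Hochberg over all probes tested), and 3 arrays against 3 cannot give an exact permutation p below 0.1, so calls rest on limma's model.

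The response itself, LPS minus 0 h, differed between the lines by -5.14 ± 0.33 at 1 h (95% interval -5.84 to -4.44), -6.24 ± 0.33 at 3 h and -4.96 ± 0.33 at 5 h (limma adjusted p = 8.09e-09, 1.63e-10 and 2.14e-09). Values below background at 0 h enter these differences. Without the slide of Tbc1d23 replicate 3 they were -5.54, -6.64 and -5.38, and from that slide alone against the CAT slides, all of 1 slide run, -4.34, -5.44 and -4.13. The time courses also had different shapes. On each CAT slide Ifnb1 rose from 1 to 3 h (by 1.52, 1.02 and 0.86) and was lower at 5 h than at 3 h (-0.93, -0.97 and -0.53). On the Tbc1d23 slides it moved by -0.29, 0.35 and 0.03 from 1 to 3 h, and was higher at 5 h than at 3 h by 0.47, 0.42 and 0.50. At 0 h the probe read -4.45, -5.10 and -5.75 in the Tbc1d23 line and -6.25, -6.04 and -6.40 in the CAT line, all below background, so that no fold is given.

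Among the Irf genes, 0 of 8 were called after 1 h of LPS in either line, by the brightest probe of each gene, when Ifnb1 was already up. At an unadjusted p under 0.05 there were 3 of 8 in the CAT line and 1 of 8 in the Tbc1d23 line, all higher. The share of all probes at that looser threshold was not computed, so these counts have no background. The shares that follow are of calls by adjusted p. In the CAT line 7.51% of all probes were called at 1 h, 35.8% at 3 h and 42% at 5 h, and in the Tbc1d23 line 1.7, 6.49 and 5.47%. By 3 h, 5 of the 8 were higher in the CAT line (Irf1, Irf4, Irf5, Irf7 and Irf9), and by 5 h also Irf2. In the Tbc1d23 line 2 of the 8 were higher at 3 h and at 5 h (Irf5 and Irf8). With the slide as a replicate block within each line, Irf1 and Irf5 were called higher and Irf8 lower at 1 h in the CAT line, as given with each gene. That block called 3453 of all 21960 probes there, against 1650 without it.

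**Figure D2:**
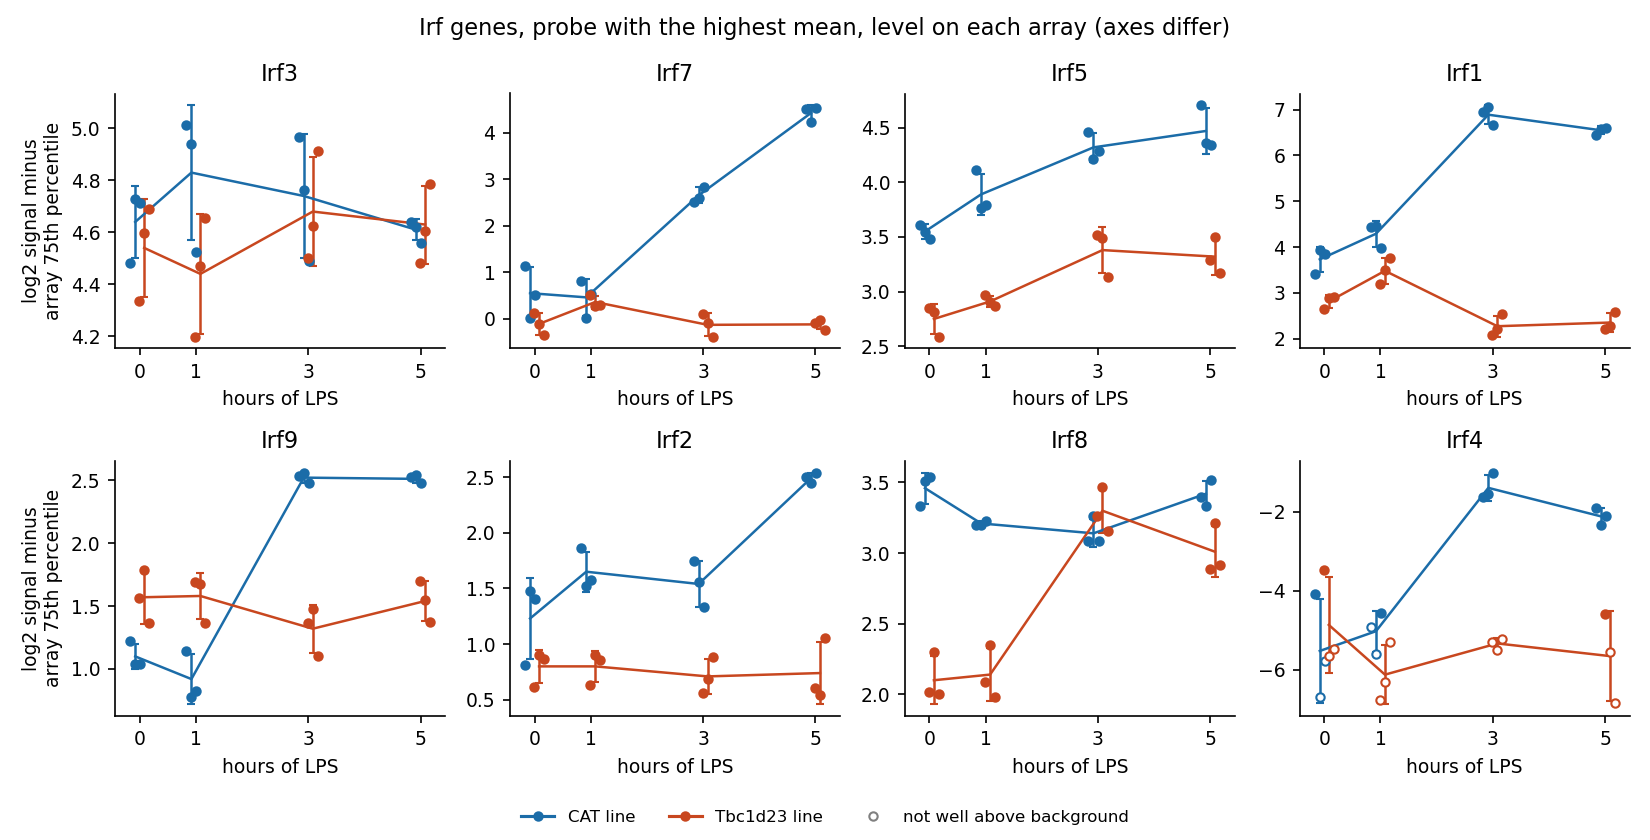
Log2 level relative to the array's 75th percentile (y axes, 1 panel per Irf gene, brightest probe) at each time after LPS in hours (x axes) in both lines. Points are arrays, lines join group means, bars are ± SD (n = 3), and open points are not well above background. From 0 to 5 h the CAT means of Irf7 went from 0.55 to 4.42 and those of Irf1 from 3.73 to 6.55, the Tbc1d23 mean of Irf8 went from 2.10 to 3.01, and the Irf3 groups overlapped.

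Irf3, the factor that TLR4 and TRIF activate first, had no called difference by either probe with the scaling used here. Its brighter probe (A_51_P485499, mm9 chr7:52257673-52257732) read 4.48, 4.73 and 4.71 at 0 h and 4.97, 4.76 and 4.49 at 3 h in the CAT line, against 4.33, 4.6 and 4.69 and then 4.50, 4.63 and 4.92 in the Tbc1d23 line. All 8 groups overlapped their neighbours in the order of means. The line difference of Irf3 was -0.10 (95% interval -0.44 to 0.24) at 0 h, -0.38 (-0.72 to -0.04, limma adjusted p = 0.0611) at 1 h, -0.06 (-0.40 to 0.28) at 3 h and 0.02 (-0.32 to 0.36) at 5 h. Quantile normalization called it lower at 0 h (-0.28, adjusted p = 0.0332) and 1 h (-0.54, adjusted p = 0.000357), as did the deposited values (adjusted p = 0.0344 and 0.000325). At 1 h it was also called with normexp (-0.40, adjusted p = 0.0116), among probes well above background on all 24 arrays (adjusted p = 0.0491) and without the slide of Tbc1d23 replicate 3 (-0.49, adjusted p = 0.0227). Beside these Irf3 values, Ifnb1 was 16.1-fold lower at 1 h, 34.6-fold at 3 h and 14.3-fold at 5 h. The dimmer Irf3 probe (A_52_P609770, chr7:52253377-52253436) is annotated by an Ensembl transcript, and unlike the brighter one it was not matched to RefSeq. This dimmer probe fell short of a call after LPS in the CAT line, by -0.60 at 1 h, -0.71 at 3 h (adjusted p = 0.0555) and -0.64 at 5 h (0.0748). With the slide as a block the 3 h value was called (-0.71, adjusted p = 0.0405), and leaving out 1 array gave a call there for 5 of the 24 arrays.

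Irf7, which amplifies type I interferon once some has been made, rose in the CAT line by 3 h and was highest there at 5 h. Its probe (A_51_P421876, mm9 chr7:148450664-148451014, minus strand, a genomic span of 351 bases) read 1.13, 0.02 and 0.50 at 0 h and 0.82, 0.02 and 0.54 at 1 h in the CAT line. It then read 2.52, 2.59 and 2.84 at 3 h and 4.51, 4.23 and 4.53 at 5 h. The Tbc1d23 arrays stayed between -0.39 and 0.52 at every time, below every CAT array at 3 and 5 h. The CAT rise was 2.10 ± 0.23 at 3 h (4.28-fold, limma adjusted p = 5.92e-07) and 3.87 ± 0.23 at 5 h (14.7-fold, adjusted p = 8.51e-11). The Tbc1d23 changes were 0.47, -0.02 and -0.01 at 1, 3 and 5 h (adjusted p = 0.67, 0.992 and 1). The line difference grew from -0.09 at 1 h (adjusted p = 0.777) to -2.78 at 3 h and -4.54 at 5 h, 6.85-fold and 23.3-fold lower (adjusted p = 1.23e-08 and 9.11e-12). The difference in response was -2.12 ± 0.33 at 3 h (adjusted p = 0.000106) and -3.88 ± 0.33 at 5 h (adjusted p = 4.32e-08). Scaling by the array median lost the 3 h call (-1.53, adjusted p = 0.0745). At 0 h Irf7 was called lower in the Tbc1d23 line (-0.66, adjusted p = 0.0273), but the arrays overlapped. That call was lost without Tbc1d23 replicate 2 (adjusted p = 0.0585) or 3 (0.101), or CAT replicate 1 (-0.37, 0.193) or 3 (0.0513), each at 0 h, and without the slide of Tbc1d23 replicate 3 (-0.54, adjusted p = 0.113).

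Irf1, an activator of interferon-responsive genes, had the largest line difference at any time, at 3 h, among the Irf probes that were well above background on all 24 arrays. The brighter probe (A_51_P146103, mm9 chr11:53590715-53590774) read 3.41, 3.94 and 3.84 at 0 h in the CAT line and 6.94, 7.07 and 6.66 at 3 h, and 6.45, 6.58 and 6.61 at 5 h. In the Tbc1d23 line it read 2.65, 2.88 and 2.92 at 0 h, then 3.20, 3.51 and 3.75 at 1 h, 2.08, 2.20 and 2.53 at 3 h and 2.20, 2.28 and 2.58 at 5 h. Irf1 was higher in the CAT line at every time, without overlap. The CAT rise was 3.16 ± 0.18 at 3 h (8.92-fold, limma adjusted p = 6.42e-11) and 2.82 ± 0.18 at 5 h (7.04-fold, adjusted p = 2.43e-10).

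From 1 to 3 h the lines moved in opposite directions: Irf1 rose by 2.50, 2.60 and 2.69 on the CAT slides and fell by 1.11, 1.30 and 1.22 on the Tbc1d23 slides. At 1 h the change from 0 h was 0.56 in the CAT line (limma adjusted p = 0.0747) and 0.67 in the Tbc1d23 line (adjusted p = 0.0826). With the slide as a replicate block these were called (adjusted p = 0.00758 and 0.00802), as they were with quantile normalization (0.0107 and 0.0111), and so were Irf1's later Tbc1d23 values, -0.54 at 3 h (0.0104, against 0.0922 without the block) and -0.46 at 5 h (0.0281, against 0.191). The 1 h response did not differ between the lines by the test (0.11, 95% interval -0.43 to 0.65), and the responses differed by -3.70 ± 0.26 at 3 h and -3.28 ± 0.26 at 5 h (adjusted p = 5.44e-09 and 1.56e-08). The line difference was -0.92 ± 0.18 at 0 h, -0.81 ± 0.18 at 1 h, -4.62 ± 0.18 at 3 h (24.5-fold) and -4.19 ± 0.18 at 5 h (18.3-fold), all called lower in the Tbc1d23 line. Of these, the 1 h call was lost within the slide run that holds both lines (-0.54, adjusted p = 0.128) and with median scaling (adjusted p = 0.0521).

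The dimmer Irf1 probe (A_52_P175685, chr11:53587446-53587591, a span of 146 bases) was well above background on 2 of 3 Tbc1d23 arrays at 0 h and 1 of 3 at 1 h. It was below background on all 3 Tbc1d23 arrays at 3 h. There it was at least 13.2-fold lower than in the CAT line (limma adjusted p = 1.41e-05), and at 5 h it was lower by 3.07 ± 0.75 on the log2 scale (adjusted p = 0.00196), with 2 of 3 Tbc1d23 arrays well above background. Both Irf1 probes therefore gave the same direction at 3 and 5 h. At 0 h they did not: the dimmer probe read -1.55, -5.34 and -2.99 in the Tbc1d23 line, overlapping the CAT arrays (0.21, adjusted p = 0.85). Its difference in response at 5 h (-3.28, adjusted p = 0.0304) was lost without the slide of Tbc1d23 replicate 3 (-2.54, adjusted p = 0.149) and in 9 of 24 cases when single arrays were left out, which gave adjusted p up to 0.0894.

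Irf5, which drives inflammatory cytokine genes in macrophages, rose in both lines from different starting levels. Its probe in the CAT line (A_51_P346668, mm9 chr6:29486901-29486960) read 3.61, 3.55 and 3.48 at 0 h and 4.71, 4.36 and 4.34 at 5 h. The Tbc1d23 arrays read 2.85, 2.82 and 2.59 at 0 h and 3.29, 3.50 and 3.17 at 5 h. Every Tbc1d23 array lay below every CAT array of its time, with mean log2 differences of -0.80, -0.98, -0.94 and -1.15 at 0, 1, 3 and 5 h (limma adjusted p = 8.96e-05, 1.02e-05, 1.12e-05 and 8.59e-07). LPS raised Irf5 by 0.77 and 0.92 at 3 and 5 h in the CAT line, and by 0.63 and 0.57 in the Tbc1d23 line (adjusted p = 0.00605 and 0.0142). The differences in response were -0.18 (95% interval -0.58 to 0.22), -0.15 (-0.54 to 0.25) and -0.35 (-0.75 to 0.04), none called. With the slide as a block, the 5 h difference was called (-0.35, adjusted p = 0.019), and so was the CAT rise at 1 h (0.34, adjusted p = 0.00628 against 0.18). The Tbc1d23 rise at 5 h was lost without Tbc1d23 replicate 2 at 5 h (0.48, adjusted p = 0.0936) or replicate 3 at 0 h (0.48, adjusted p = 0.0743), and both Tbc1d23 rises were lost in the slide run with 1 Tbc1d23 slide (0.55, adjusted p = 0.405, and 0.58, adjusted p = 0.374). Median scaling lost the CAT rises of Irf5 (0.73, adjusted p = 0.154, and 0.86, adjusted p = 0.0643) and the Tbc1d23 rise at 5 h (adjusted p = 0.465).

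Irf9, the DNA-binding subunit of ISGF3, rose in the CAT line between 1 and 3 h and had no called response in the Tbc1d23 line. The brighter probe (A_51_P127367, mm9 chr14:56228256-56228315) read 1.22, 1.04 and 1.04 at 0 h, 1.14, 0.78 and 0.82 at 1 h, 2.54, 2.56 and 2.48 at 3 h and 2.52, 2.54 and 2.48 at 5 h in the CAT line. In the Tbc1d23 line it lay between 1.11 and 1.78 on all 12 arrays. The Tbc1d23 change at 3 h was -0.26 (limma adjusted p = 0.358), which the slide as a block called lower (0.0391). The lines crossed: Irf9 was higher in the Tbc1d23 line at 0 h (0.47 ± 0.13, adjusted p = 0.00722) and 1 h (0.66 ± 0.13, adjusted p = 0.000524), and lower at 3 h (-1.21 ± 0.13, adjusted p = 4.85e-07) and 5 h (-0.97 ± 0.13, adjusted p = 6.08e-06). The 0 h direction turned with median scaling (-0.08, adjusted p = 0.867), which also lost the 1 h call (0.55, adjusted p = 0.256), and within the slide run of both lines the 0 h value was 0.27 (adjusted p = 0.208).

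In the CAT line the Irf9 rise was 1.42 ± 0.13 at 3 h (2.68-fold, limma adjusted p = 6.29e-08) and 1.41 ± 0.13 at 5 h, and the responses differed by -1.68 ± 0.19 and -1.45 ± 0.19 (adjusted p = 2.79e-06 and 1.01e-05). Median scaling kept the sign and lost both calls on the differences in response (-1.09, adjusted p = 0.171, and -1.13, adjusted p = 0.157). The dimmer probe (A_52_P176013, chr14:56224980-56225190, a span of 211 bases) also rose in the CAT line, by 1.60 and 1.51, and was lower in the Tbc1d23 line at 3 h (-1.57 ± 0.42, adjusted p = 0.00443). This probe was well above background on 2 of 3 Tbc1d23 arrays at 0 h and at 3 h. At 5 h its line difference was -0.92 (adjusted p = 0.076). It was called with slides taken as random blocks (adjusted p = 0.0293), with a block for slide run (-1.65, adjusted p = 6.68e-05), within the slide run of both lines (-1.72, adjusted p = 0.000477), with median scaling (-1.16, adjusted p = 0.0292), with normexp (-0.36, adjusted p = 0.00741) and without Tbc1d23 replicate 1 at 5 h (-1.32, adjusted p = 0.0176). Without the slide of Tbc1d23 replicate 3 it was -0.52 (adjusted p = 0.164). Its difference in response at 5 h (-1.58, adjusted p = 0.0655) was called with the slide as a block (adjusted p = 0.00021).

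Irf2, which competes with IRF1 for the same sites and is described mainly as a repressor, passed the test after LPS at 5 h in the CAT line and at no time in the Tbc1d23 line. Its probe (A_51_P316523, mm9 chr8:47932486-47932545) read 0.82, 1.48 and 1.4 at 0 h and 2.50, 2.44 and 2.53 at 5 h in the CAT line, a rise of 1.26 ± 0.17 (2.40-fold, limma adjusted p = 7.53e-06). The 12 Tbc1d23 arrays lay between 0.54 and 1.06, with LPS changes of 0.00, -0.09 and -0.06. The response at 5 h differed by -1.32 ± 0.25 (adjusted p = 0.000493), and that call was lost with median scaling (-1.01, adjusted p = 0.25) and within the slide run of both lines (-1.07, adjusted p = 0.0755). The line difference was -0.85 at 1 h, -0.83 at 3 h and -1.76 at 5 h (adjusted p = 0.000589, 0.00059 and 1.02e-07), of which the 3 h call was lost with median scaling (adjusted p = 0.0847) and within the slide run of both lines (-0.66, adjusted p = 0.0627). The 0 h difference of Irf2 stood at the threshold (-0.44, adjusted p = 0.0488) with overlapping arrays, and it was lost in 17 of the 24 fits that left out 1 array and with a block for slide run (-0.28, adjusted p = 0.204).

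Irf8, a factor that specifies the macrophage and dendritic lineages, was the one Irf gene called for a larger LPS response in the Tbc1d23 line. Its brighter probe (A_52_P354823, mm9 chr8:123280324-123280383) started lower there, at 2.02, 2.30 and 2.00 at 0 h against 3.33, 3.51 and 3.54 in the CAT line. At 3 h it read 3.26, 3.47 and 3.15 against 3.08, 3.26 and 3.08, so the groups overlapped, and at 5 h it read 2.88, 3.22 and 2.92 against 3.40, 3.33 and 3.52. The line difference was thus -1.36 ± 0.12 at 0 h (2.56-fold, limma adjusted p = 5.17e-08), -1.07 ± 0.12 at 1 h, 0.15 (95% interval -0.11 to 0.41) at 3 h and -0.41 ± 0.12 at 5 h (adjusted p = 0.00907). The rise of Irf8 after LPS was 1.19 ± 0.12 at 3 h in the Tbc1d23 line (2.28-fold, adjusted p = 2.01e-06) and 0.90 ± 0.12 at 5 h (adjusted p = 7.98e-05), and nearly all of that came between 1 and 3 h, at 1.17, 1.12 and 1.17 on the 3 slides. In the CAT line its changes were -0.25, -0.32 and -0.05, and with the slide as a block the first and the second of these were called lower (adjusted p = 0.0168 and 0.00104). Singly left out, 8 of the 24 arrays also gave a call at 3 h.

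The response of Irf8 was larger in the Tbc1d23 line by 1.51 ± 0.17 at 3 h and 0.95 ± 0.17 at 5 h (limma adjusted p = 3.86e-06 and 0.000413). Median scaling kept the 5 h sign and lost its call (1.26, adjusted p = 0.123), and also lost the 5 h line difference (adjusted p = 0.154) and the Tbc1d23 rise at 5 h (1.15, adjusted p = 0.131). The dimmer probe (A_51_P187253, chr8:123279889-123279948) gave the same pattern, with line differences of -1.91, -1.41, -0.35 (adjusted p = 0.138) and -1.03 and a difference in response of 1.56 at 3 h and 0.87 at 5 h (adjusted p = 0.000294 and 0.0225). Its 5 h difference in response was lost without Tbc1d23 replicate 1 at 0 h (adjusted p = 0.0668), Tbc1d23 replicate 2 at 5 h (0.0647) or CAT replicate 1 at 0 h (0.0518). It also fell at 3 h in the CAT line (-0.53, adjusted p = 0.034), and that call was lost with median scaling (-0.57, adjusted p = 0.366), with no filter on dim probes (adjusted p = 0.0813), without CAT replicate 1 at 3 h (-0.33, adjusted p = 0.217) or without any 1 of the 3 CAT arrays at 0 h.

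Irf4, known from lymphocytes and from alternatively activated macrophages, was measurable mainly in the CAT line after LPS. Its probe (A_51_P514985, mm9 chr13:30858459-30858518) read -1.61, -1.55 and -1 at 3 h and -1.90, -2.33 and -2.10 at 5 h there, and only 1 of the 3 CAT arrays was well above background at 0 h and at 1 h. No Tbc1d23 array was well above background at 1 h or 3 h, and 1 of 3 was at 0 h and at 5 h. At 3 h Irf4 was at least 7.02-fold lower in the Tbc1d23 line (limma adjusted p = 4.96e-05), and at 5 h the fitted difference was -3.54 ± 0.64 (adjusted p = 0.000138). The fitted differences in response, -4.61 ± 0.91 and -4.20 ± 0.91 (adjusted p = 0.00122 and 0.00187), rest on those dim arrays.

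Counted by probe, 8 of the 13 member probes were called between the lines at 0 h (2 higher, Ifnb1, which is below background there, and the brighter Irf9 probe, and 6 lower in the Tbc1d23 line), where 45% of all probes were (24.8% higher and 20.2% lower). At 1 h 7 were called (1 higher and 6 lower), where 45% of all probes were (23.2% higher and 21.8% lower). At 3 h 9 were called and at 5 h 10, all lower, against 24.4% of all probes called lower at 3 h and 24% at 5 h. The difference in response was called for 1 probe at 1 h (2.32% of all probes), for 9 at 3 h (15.7%) and for 9 at 5 h (22.3%). At 3 and at 5 h, 7 of these were lower and 2, both of Irf8, higher, against 8.51 and 10.9% of all probes called lower and 7.18 and 11.4% called higher. Over all probes the median line difference was 0.09, 0.03, 0.03 and 0.08 at the 4 times. Median scaling moved it to -0.47 at 0 h, and turned the split of calls at 0 h from 5449 higher and 4425 lower to 1261 and 5924, while quantile normalization gave 4500 and 6116. Without the slide of Tbc1d23 replicate 3, 162 of the 169 member results kept their direction and call, 2 lost a call and 5 gained one. In that fit each line lies in a slide run of its own, so line and slide run cannot be told apart.

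**Figure D3:**
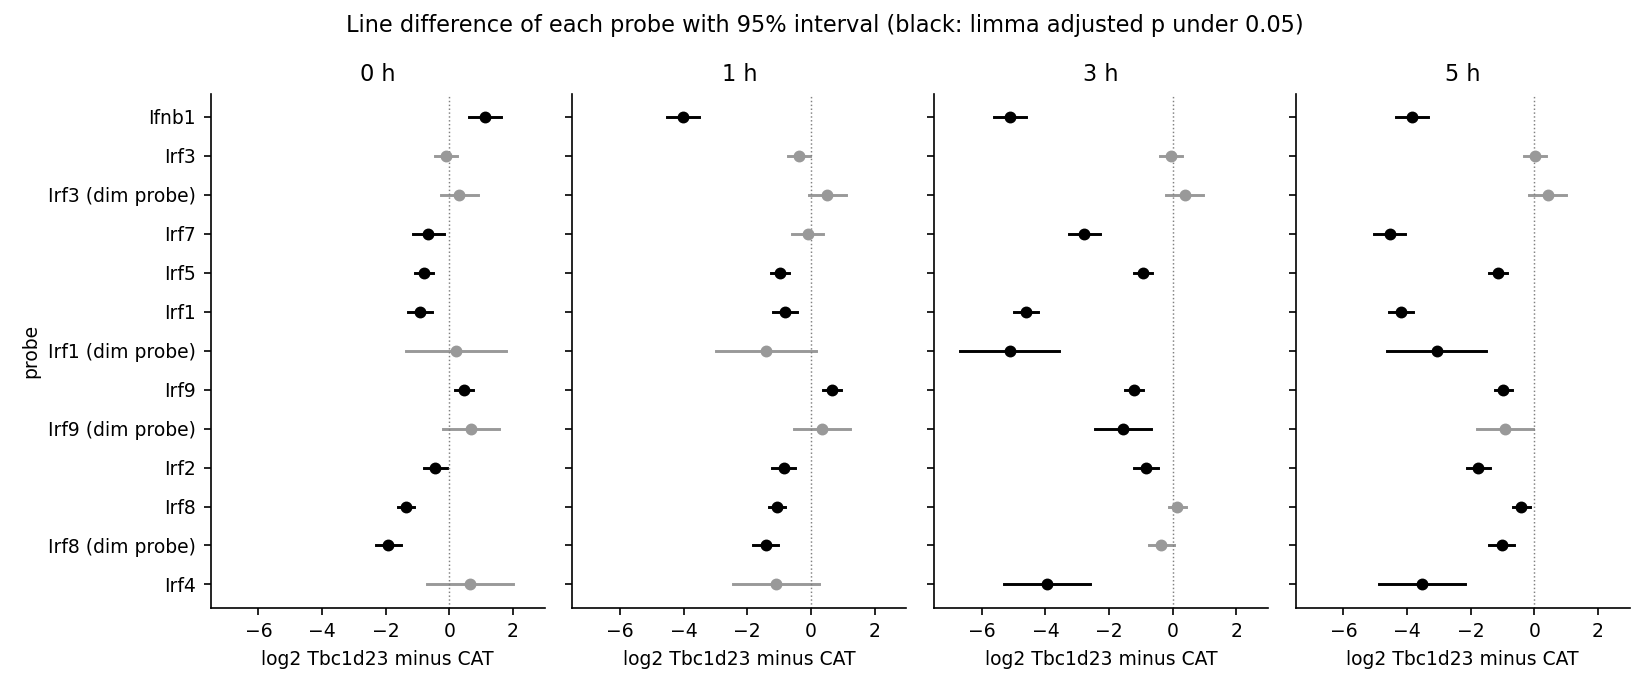
Line difference, Tbc1d23 minus CAT, as log2 (x axes) for each of the 13 member probes (y axis) at 0, 1, 3 and 5 h after LPS (panels). Points are limma estimates from 3 arrays per group, bars are 95% intervals, black marks a limma adjusted p under 0.05 and grey the rest. The difference at 3 h was -5.11 for Ifnb1 and -4.62 for the brighter Irf1 probe, and -0.06 for the brighter Irf3 probe.

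Set beside Ifnb1, Irf1 was the one gene whose 1 h change came near a call in both lines. Ifnb1 differed between the lines by -4.01 at 1 h, when the line differences of the Irf genes by brightest probe ran from -1.07 (Irf8) to 0.66 (Irf9), with Irf4 left out because its probe was well above background on 1 of those 6 arrays. At 3 h the order from the largest reduction was Ifnb1 (-5.11), Irf1 (-4.62), Irf7 (-2.78), Irf9 (-1.21), Irf5 (-0.94), Irf2 (-0.83), Irf3 (-0.06) and Irf8 (0.15), and Irf4, at least 7.02-fold lower, has a bound and no place in the order. At 5 h Irf7 came first (-4.54), followed by Irf1 (-4.19), Ifnb1 (-3.83), Irf2 (-1.76), Irf5 (-1.15), Irf9 (-0.97), Irf8 (-0.41) and Irf3 (0.02), with Irf4 again left out. Across the 8 group means, which share their lines and times, the correlation with Ifnb1 was highest for Irf5 (Pearson 0.77, Spearman 0.71), then Irf1 (0.71, 0.57), Irf7 (0.65, 0.43), Irf2 (0.64, 0.50), Irf9 (0.55, 0.45), Irf3 (0.50, 0.45) and Irf8 (0.33, 0.10). The dimmer Irf3 probe, not matched to RefSeq, ran opposite to Ifnb1 (-0.93, -0.95), and so the probes named Irf3 disagree.

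Each of these correlations includes the 0 h means of Ifnb1, which are below background, and none is given for Irf4, whose probe was well above background on 1 array or none in 6 of the 8 groups. Within a line each rests on 4 means, 1 of them such a 0 h mean. For Irf5 the Pearson correlation with Ifnb1 was 0.84 in the CAT line and 0.77 in the Tbc1d23 line. For Irf1 it was 0.75 and -0.17, for Irf7 0.54 and 0.24, for Irf2 0.58 and -0.58, for Irf9 0.57 and -0.34, for Irf3 0.40 and 0.25, and for Irf8 -0.70 and 0.62. These are descriptions of a few means.

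**Figure D4:**
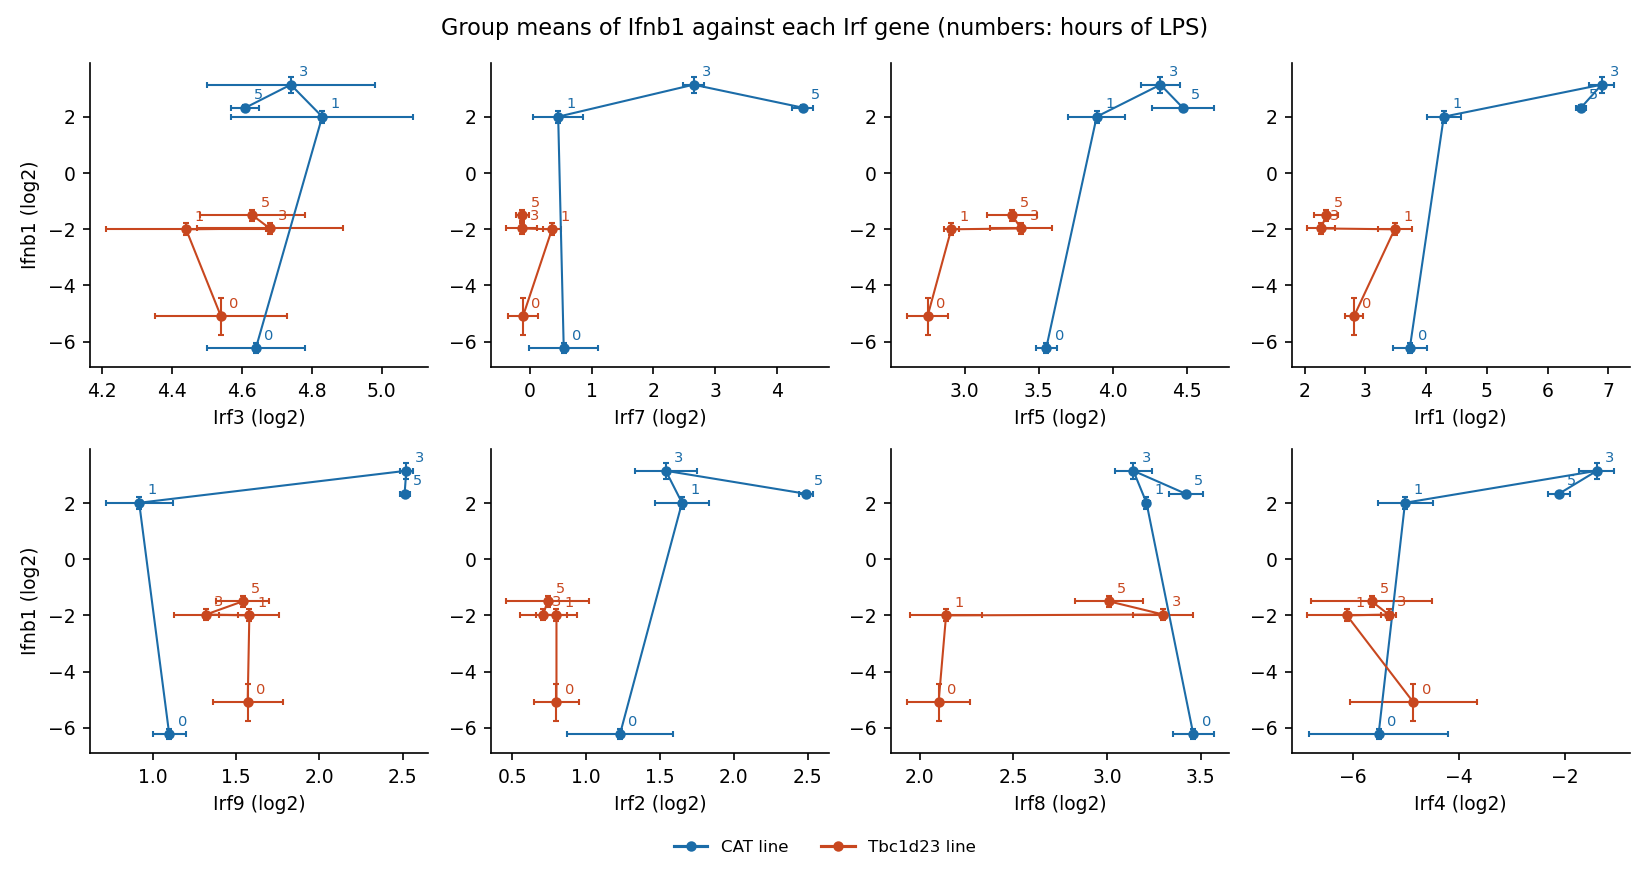
Mean log2 level of Ifnb1 (y axes) against that of each Irf gene by its brightest probe (x axes, 1 panel per gene), both relative to the array's 75th percentile, for the 8 groups. Points are means of 3 arrays, bars are ± SD, lines join the times (numbers, in hours of LPS) of a line, and the 0 h means of Ifnb1 are below background. In the Irf3 panel the Irf3 means run from 4.61 to 4.83 in the CAT line and from 4.44 to 4.68 in the Tbc1d23 line, and in the Irf7 panel Ifnb1 at 1 h is 2.01 in the CAT line with Irf7 at 0.46.

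By the likeness of group means over 12378 genes, the genes closest to Ifnb1 were Kbtbd8 (Pearson 0.98), Il1b (0.975), which encodes the cytokine interleukin 1 beta, Pde4b (0.975), a cyclic AMP phosphodiesterase, C5ar1 (0.97), the receptor of complement C5a, and Marcksl1 (0.966). Closest to Irf7 were Pik3ap1 (0.998), Chit1 (0.997) and Nudt6 (0.994), and closest to Irf1 were Tiparp (0.989), Vrk2 (0.982) and Asap1 (0.98). Irf9 was followed most closely by Mx2 (0.986), an antiviral GTPase, Trim34a (0.978) and Nrp2 (0.973). For Irf5 they were Rgl1 (0.998), Dusp11 (0.997) and Abca1 (0.993), for Irf2 Clec4n (0.987), Syk (0.978) and Ctsc (0.978), and for Irf4, whose means are mostly near background, Plet1 (0.985), Tfap2a (0.984) and Tspan33 (0.983). Likeness was lower for Irf8, with Cela3b (0.969), Ppp1r37 (0.941) and Adam4 (0.926), and for Irf3, with Gpcpd1 (0.94), Nsmce3 (0.925) and Dnajb12 (0.91). All of these are the highest among 12378 genes over only 8 means, so high values come with the selection, and none was tested. The Irf3 means ran only from 4.44 to 4.83 with overlapping groups, so its closest genes may follow noise.

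The genes around the members were read by role, by the brightest probe of each gene, as counts called between the lines. At 3 h 24.4% of all probes were called lower and 25.9% higher in the Tbc1d23 line, with a median of 0.03, and the counts of each role are read against these shares. On the route from TLR4 through TRIF to IRF3, 9 of 18 genes were lower and 3 higher in the Tbc1d23 line at 3 h (median -0.32). Ikbke, a kinase of IRF3 and IRF7, was 8.28-fold lower (-3.05 ± 0.30, limma adjusted p = 1.25e-07), and Peli1, a ubiquitin ligase of the TRIF route, was lower by 3.19 ± 0.22. Tlr4 itself was higher by 0.92 ± 0.22 and Tbkbp1, a TBK1-binding protein, by 0.75 ± 0.25. Among 9 partners of the Ifnb1 enhancer, 4 were higher and 3 lower at 3 h (median -0.04): Jun, an AP-1 subunit, was higher by 3.42 ± 0.10 (adjusted p = 9.41e-15) and Ep300, a coactivator, 2.42-fold higher, whereas Nfkb1 and Relb, both NF-kB subunits, were 2.39-fold and 2.37-fold lower. Of 7 cytosolic nucleic acid sensors and their adaptors, 5 were lower and 2 higher (median -2.15). Zbp1 and Ifih1, sensors of nucleic acids, were lower by 4.92 ± 0.17 and 4.44 ± 0.12, and the adaptors Tmem173 and Mavs were higher by 1.16 ± 0.19 and 0.33 ± 0.13.

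Other interferons gave no call. Of 18 listed, 12 were on the array and 6 were tested, and 0 were called in any comparison by limma, nor did any reach an unadjusted p under 0.05, with medians between -0.27 and 0.23 at 0, 3 and 5 h. Near-identical Ifna genes could share signal among these 6 probes (Ifna2, Ifna5, Ifna9, Ifna13, Ifnab and Ifnz). With the slide as a random block 1 of them was called higher in the Tbc1d23 line at 3 h, and within the slide run of both lines 2 were. Of 15 genes of the interferon receptors and the JAK-STAT pathway, 10 were lower and 1 higher at 3 h (median -1.22). The feedback inhibitors Socs1 and Usp18 were 13.0-fold and 7.56-fold lower, and Ifngr1, a receptor subunit for interferon gamma, was 1.88-fold higher. Among 13 partners and regulators of IRF proteins 6 were lower and 1 higher. Batf2, an IRF partner, was 39.3-fold lower, Trim21, a ubiquitin ligase, was 15.4-fold lower, and Bcl6, a repressor, was 4.96-fold higher.

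The targets of type I interferon set the scale at the end of the pathway. After 3 h of LPS 24 of 24 were higher in the CAT line (median 4.43), as after 5 h (median 5.62), against 18.3 and 20.5% of all probes called higher. In the Tbc1d23 line 3 were higher and 4 lower at 3 h (median -0.10), where 3.55% of all probes were higher and 2.94% lower, and 6 were higher and 2 lower at 5 h (median -0.10), where 2.94% were higher and 2.53% lower. The line difference was called lower for 21 of 24 at 3 h (median -3.90) and 24 of 24 at 5 h (median -4.53), against 24.4 and 24% of all probes. Ifit1 and Rsad2, both antiviral effectors, were 264-fold and 193-fold lower at 3 h (limma adjusted p = 8.52e-17 and 1.78e-15).

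Before LPS the same list lay the other way. At 0 h 16 of 24 targets were higher in the Tbc1d23 line and 0 lower by limma, also at an unadjusted p under 0.05 (median 0.76, against 24.8% of all probes called higher), a count that was 6 with median scaling (median 0.20), 15 with quantile normalization (1 lower) and 15 within the slide run of both lines. At 1 h 12 were higher and 5 lower, against 23.2 and 21.8% of all probes. Ifnb1 was below background in both lines at 0 h. In the Tbc1d23 line Irf9 was called higher at 0 h and Irf7 lower with overlapping arrays, each with the limits given above. Of 11 genes described as targets of IRF1 or IRF8, 7 were lower in the Tbc1d23 line at 0 h (median -1.08, against 20.2% of all probes called lower) and 10 at 3 h (median -2.63, against 24.4%). Tap1, a peptide transporter of antigen presentation, was 15.8-fold lower at 3 h, and Gbp2, a GTPase, was lower by 6.85 ± 0.86 with 1 of 3 Tbc1d23 arrays well above background.

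**Figure D5:**
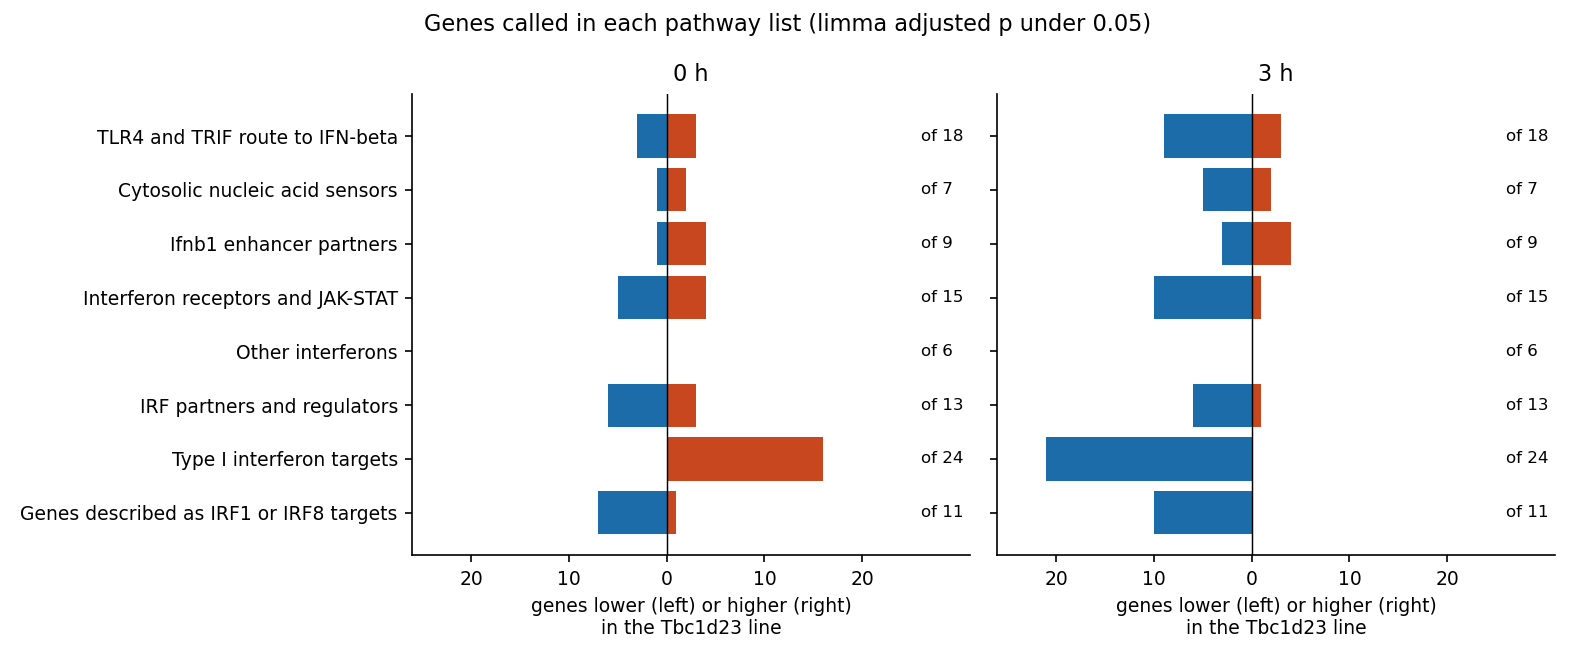
Number of genes called by limma (adjusted p under 0.05) as lower (bars to the left) or higher (bars to the right) in the Tbc1d23 line than in the CAT line (x axes) for each list around Ifnb1 and the Irf genes (y axis), at 0 h and 3 h of LPS, with the number tested beside each bar. Of the 24 type I interferon targets, 16 were higher at 0 h and 21 were lower at 3 h.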

How the data were processed

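Cy3-labelled RNA of 24 samples was read on Agilent one-colour arrays for mouse, per the labels. For every spot the deposited scanner files give an intensity, made with Agilent's Feature Extraction, whose version per the file headers was 10.7.1.1, of which the background-subtracted processed signal was used. A deposited table of log2 values, whose scale was read from the values, ranks probes almost as that signal does (Spearman correlation at least 0.99973 per array) and served as an alternative.

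Spots of a probe were averaged (43379 spots, 41174 probes) and scaled as log2 relative to the 75th percentile of the array. The test took 21960 probes, those well above background in a whole group (3 of 3 arrays) or more. It used limma (version 3.58.1 in R 4.3.3, with lmFit, eBayes and 1 spread for all groups), tested on simulated data, with Benjamini-Hochberg adjustment over all probes of a comparison. The simulated arrays varied independently, so that check does not cover samples that share a slide. Values after ± are standard errors unless given as SD. The number of arrays limits the precision. Coordinates of probes come from the scanner files (build mm9), and no annotation of that build was used. The members, the gene lists and the tests were chosen with earlier results of these data known. All probes of the 9 members are named. In each list the 2 highest and 2 lowest called line differences at 3 h are named, and the 5 genes most like Ifnb1 and the 3 most like each Irf gene.

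Alternatives were other scalings, background corrections and filters, the slide and the slide run as blocks, and leaving out arrays. Replicate numbers were checked as pairs. Within a line, samples of the same number share a slide and deviated together (correlation of deviations 0.06 to 0.81, over 0.1 for 35 of 36 pairs). Between the lines they did not (-0.38 to -0.04 for the 12 pairs of a time), so numbers pair no samples across lines.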

Additional observations from a re-analysis of the deposited data

Results flagged for a closer look

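The response to LPS (LPS minus 0 h) differed between the lines, Tbc1d23 minus CAT, by limma's interaction test for 19 combinations of member probe and time. For Ifnb1 the difference was -5.14 at 1 h, -6.24 at 3 h and -4.96 at 5 h. At 3 h it was -3.70 for the brighter and -5.33 for the dimmer Irf1 probe, -4.61 for Irf4, -2.12 for Irf7, and -1.68 and -2.24 for the brighter and dimmer Irf9 probes. At 5 h it was -3.28 for both Irf1 probes, -1.32 for Irf2, -4.20 for Irf4, -3.88 for Irf7 and -1.45 for the brighter Irf9 probe. Irf8 went the other way by both probes, with 1.51 and 1.56 at 3 h and 0.95 and 0.87 at 5 h. Adjusted p-values ran from 1.63e-10 (Ifnb1 at 3 h) to 0.0304 (the dimmer Irf1 probe at 5 h). Some of these sizes rest on dim signal. Ifnb1 was below background at 0 h in both lines. Irf4 and the dimmer Irf1 probe were below background on all 3 Tbc1d23 arrays at 3 h.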

How the results depend on the processing

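The difference in LPS response of Ifnb1 kept its direction and its call at 1, 3 and 5 h under every alternative run, and with single arrays left out it ranged from -5.46 to -4.82, -6.57 to -5.92 and -5.29 to -4.64. With single arrays left out, the member probes called between the lines numbered 6 to 8 at 0 h, 7 to 8 at 1 h, 9 to 10 at 3 h and 10 to 11 at 5 h. For LPS in the CAT line they numbered 1 to 2, 8 to 11 and 9 to 10 at 1, 3 and 5 h, in the Tbc1d23 line 1, 4 to 5 and 2 to 4, and for the difference in response 1, 9 and 7 to 10. Of 4056 member results with 1 array left out, 3990 kept direction and call, 41 lost a call and 25 gained one.

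Within the slide run of both lines, with 1 Tbc1d23 array per time, fewer probes were called at 0 h, among the members and among all probes. In the CAT line at 1 h, 2 member probes were called instead of 1 with quantile normalization, normexp, the deposited values, the slide run as a block or without the slide of Tbc1d23 replicate 3. The last of these and the normexp version were chosen after seeing the data. Over all probes these settings called, in that order, 1686, 1332, 1676, 2451 and 2050, against 1650. In the Tbc1d23 line at 1 h it was 2 member probes instead of 1 with quantile normalization, normexp, the deposited values, no filter, or the slide run as a block. Over all probes these called 381, 229, 377, 2103 (of 41174 without the filter) and 568, against 374. Median scaling left 1 instead of 4 called in the Tbc1d23 line at 5 h, and 5 instead of 9 for the difference in response at 5 h. Over all probes it left 298 instead of 1201 and 1911 instead of 4888. It put the median of all probes at 0.55 for the difference in response at 3 h, against -0.04 with the scaling used here. It lost a call in 18 of 169 member results. The cause was not tested. Reversed were Ifnb1 at 0 h, which is below background (-0.08 with quantile normalization and with the deposited values), and Irf9 at 0 h (-0.08 with median scaling).

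With the slide within each line as replicate block, 4 member probes were called in the CAT line at 1 h, 2 in the Tbc1d23 line at 1 h and 8 at 3 h. Of all 21960 probes this block called 3453, 1003 and 3697 there, against 1650, 374 and 1425 without it, so calls rose in general. As a random block (correlation 0.537) the slide gave 5, 2 and 7, and over all probes 3240, 1021 and 3632. The number across lines as replicate block gave 3 in the CAT line at 1 h, and 1949 over all probes. The block within lines lost no call of a member and gained 13 in 117, and it gives no line difference, since each slide holds 1 line.

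The normexp correction as planned could not be fitted on 6 arrays, and was run without spots whose local background failed. Taking the brightest probe per gene, or probes well above background on all 24 arrays, leaves fewer member probes, so no counts are given for them. Signal limits Ifnb1 at 0 h, Irf4 outside the CAT line at 3 and 5 h, and the dimmer probes of Irf1 and Irf9.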
